A study of Homo sapiens with 12 samples.

Results

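Interferon-stimulated genes are the transcripts that cells switch on when interferon reaches its receptor, and 42 of them were followed here across arrays labelled as 3 human multiple myeloma cell lines, each under 4 treatments. The genes were listed by symbol, and each was represented by the array probe set that had 1 gene symbol and the highest mean over the arrays. Of the 42 genes, 41 had such a probe set, out of 18239 genes on the array, and STAT2 is not analysed here. A further gene, RSAD2, stayed between 4.58 and 5.10 on every array and was below the level needed for testing, so 40 of the 15173 genes tested were members. Over all drug comparisons 13 of these 40 members were called in at least 1 of them and 27 in none, where 13.6% of all genes tested were called in at least 1.

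Type I interferons signal through the kinases JAK1 and TYK2, which lead to assembly of the transcription complex ISGF3. IRF9 is its DNA-binding subunit, and the complex binds interferon-stimulated response elements, repeats of GAAA spaced by a pair of bases, in the promoters of its target genes. The targets include sensors of foreign RNA, enzymes that block viral replication, the ubiquitin-like modifier ISG15, immunoproteasome subunits and the peptide transporter of antigen presentation. In B cells and plasma cells many of these genes are also transcribed at a steady level without added interferon, and members of the IRF family, IRF4 among them, take part in lineage control.

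Transcript levels came from single-colour Affymetrix arrays of total RNA, 12 in all, with 1 array for each line and treatment. The cells were ARP1, JJN3 or RPMI-8226, as labelled, left untreated (control) or given one of 3 treatments for 6 h. These were CPI203, an inhibitor of BET bromodomains, at 0.01 µM; a mix named LenDex that holds 5 µM lenalidomide and 0.05 µM dexamethasone; and all 3 drugs (Combo). BET proteins read acetylated histones at active genes, lenalidomide makes cereblon, part of a ubiquitin ligase, mark the transcription factors IKZF1 and IKZF3 for degradation, and dexamethasone activates the glucocorticoid receptor, itself a repressor of several inflammatory genes. The last pair of drugs was always given together and their effects cannot be told apart. No group received interferon. Values are log2 probe set levels, changes are differences of log2 values with their standard error (SE), and n = 3 arrays per treatment, 1 per line. A member was called when limma's moderated test, with line as a block, gave an adjusted p under 0.05 over all genes tested. The average effect of a drug sets the 6 arrays with it against the 6 without it. The labels do not say whether arrays of a line came from separate cultures. The p-values of drug comparisons rest on 1 residual spread per gene, pooled over all treatments and lines. For an average effect both pairs of arrays of a line count separately. Its SE is thus not the spread of that change between the 3 lines, and a change that varied widely between lines can still be called.

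Several features of the arrays touch every result below. The arrays labelled JJN3 and RPMI-8226 were alike, with Pearson r across genes from 0.963 to 0.981 between these labels and from 0.867 to 0.887 between ARP1 and either. Of 7 B cell markers 6 were measured, and their median was 5.12 to 5.44 in ARP1 against 9.77 to 10.30 and 9.48 to 9.86 in JJN3 and RPMI-8226. Medians of 7 plasma cell markers ran the other way, at 11.78 to 11.92, 7.17 to 9.99 and 7.03 to 9.83. SDC1, the surface marker that defines plasma cells, was at 11.78 to 12.26 in ARP1 but at 4.96 to 5.79 in JJN3 and RPMI-8226, whereas the B cell marker MS4A1 was at 4.59 to 5.33 and at 11.48 to 12.06. Of the 7 plasma cell markers, 2 were below 6 on all JJN3 and RPMI-8226 arrays, SDC1 and PRDM1 (4.84 to 5.97). XBP1 (10.27 to 10.66) and MZB1 (10.13 to 10.61) were high there but lower than in ARP1. IRF4 (12.37 to 13.31) was higher than in ARP1. The JJN3 and RPMI-8226 arrays thus carried B cell markers with a part of the plasma cell markers, and whether labels or cultures were exchanged was not tested. A line below means a label, and n = 3 or a change in all 3 lines may not stand for 3 independent lines. Medians for T cell, monocyte, plasmacytoid dendritic cell and fibroblast markers were at most 5.14 on every array, although CD3D was at 7.33 to 7.68 in JJN3 and TCF4 at 8.31 to 11.03 on all arrays. The median of 5 epithelial markers was 5.91 to 7.17 in JJN3, with KRT18 at 9.07 to 9.32, against at most 5.78 on the other arrays. All 5 fibroblast genes stayed below 6 throughout, which is taken here as the level of transcripts that are not expressed. The JJN3 control array carried IGKC at 9.32 and IGHA1 at 9.84, whereas the other JJN3 arrays lay between 5.11 and 5.55 and between 5.52 and 6.24. Drug responses were present. HEXIM1, a BET inhibitor response gene, rose by 1.15 ± 0.22 (SE) over the CPI203 arrays (adjusted p = 0.022), and TSC22D3, a glucocorticoid-induced gene, rose by 3.58 ± 0.24 over the LenDex arrays (adjusted p = 0.000224). The HEXIM1 rise was small in ARP1, from 10.36 and 10.24 to 10.58 and 10.48. It went from 10.28 and 10.28 to 11.74 and 11.66 in JJN3 and from 9.85 and 9.83 to 11.71 and 11.53 in RPMI-8226.

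Promoter sequence describes these genes apart from their levels. RefSeq promoter windows (GRCh38.p14, 250 bases before to 50 bases after each annotated start) were found for 33 of the 41 measured members and searched on both strands for GAAANNGAAA, the core of the response element. The motif lay in the windows of 23 of the 33 members (69.7%), against 1195 of 27305 genes (4.38%). The members were listed as interferon-stimulated genes, so their high share partly reflects the choice of list. A match is a run of letters and not a measured binding site. The following promoters belong to called members and are printed 5′ to 3′ on the gene's strand, up to the base before the annotated start, with the motif in capitals; where matches overlap, the capitals cover all of them. Their coordinates are chr13:42992242-42992491 for EPSTI1, chr2:162318685-162318934 for IFIH1, chr7:93117980-93118229 for SAMD9 (all minus strand) and chr15:88638766-88639015 for ISG20 (plus strand).
EPSTI1: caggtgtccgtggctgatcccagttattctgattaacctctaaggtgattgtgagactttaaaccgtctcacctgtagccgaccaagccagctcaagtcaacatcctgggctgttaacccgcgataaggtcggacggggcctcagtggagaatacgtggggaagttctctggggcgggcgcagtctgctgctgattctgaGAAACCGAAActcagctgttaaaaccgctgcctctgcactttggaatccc
IFIH1: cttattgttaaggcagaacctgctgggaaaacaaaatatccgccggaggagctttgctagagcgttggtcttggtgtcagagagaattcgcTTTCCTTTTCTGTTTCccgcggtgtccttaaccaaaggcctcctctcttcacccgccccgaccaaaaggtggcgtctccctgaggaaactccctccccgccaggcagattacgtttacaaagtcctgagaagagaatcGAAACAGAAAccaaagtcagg
SAMD9: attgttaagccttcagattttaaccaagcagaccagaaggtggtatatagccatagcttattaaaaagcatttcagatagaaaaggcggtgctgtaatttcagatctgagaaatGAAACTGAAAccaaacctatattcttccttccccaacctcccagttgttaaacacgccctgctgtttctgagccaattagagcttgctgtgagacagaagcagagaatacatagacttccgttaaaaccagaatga
ISG20: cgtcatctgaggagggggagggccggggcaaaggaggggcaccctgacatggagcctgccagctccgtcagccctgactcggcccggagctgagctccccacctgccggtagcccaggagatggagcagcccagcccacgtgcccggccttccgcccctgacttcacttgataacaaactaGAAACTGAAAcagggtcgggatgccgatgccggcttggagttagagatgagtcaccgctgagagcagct
In all 4 the motif read on the gene's own strand, starting 50, 21, 136 and 69 bases before the start, and that of IFIH1 held 2 overlapping matches on the opposite strand as well. EPSTI1 and IFIH1 fell with CPI203, SAMD9 fell and ISG20 rose with LenDex, so the same letters stood upstream of members that moved in opposite directions.

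Shorter stretches, with 15 bases on either side of the outermost matches, show the element in 3 members whose LenDex changes were positive in every line (PARP9, PARP14 and TAP1) and in 4 classical antiviral members (ISG15, IFIT1, IFIT3 and IFI44). They lie at chr3:122564317-122564356 (minus strand), chr3:122680795-122680834, chr6:32853808-32853853 (minus strand), chr1:1013369-1013414, chr10:89392492-89392544, chr10:89327826-89327899 and chr1:78649756-78649795.
PARP9: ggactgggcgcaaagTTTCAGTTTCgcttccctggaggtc
PARP14: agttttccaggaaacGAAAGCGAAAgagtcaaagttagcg
TAP1: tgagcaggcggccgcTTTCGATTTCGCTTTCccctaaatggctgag
ISG15: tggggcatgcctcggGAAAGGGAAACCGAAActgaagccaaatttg
IFIT1: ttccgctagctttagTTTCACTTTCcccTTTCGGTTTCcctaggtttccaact
IFIT3: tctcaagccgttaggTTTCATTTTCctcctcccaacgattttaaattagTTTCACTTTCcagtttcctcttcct
IFI44: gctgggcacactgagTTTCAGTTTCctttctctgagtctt
The 10 bases of the PARP9 match, chr3:122564332-122564341, are also those of the match in the window of DTX3L, its head-to-head neighbour, where they begin 6 bases before the start. Of the called members with a window, the motif lay in 3 of the 5 that fell with CPI203 (EPSTI1, IFIH1 and PARP9, not SAMD9L or TASL). It lay in all 3 that rose with LenDex (ISG20, PARP9 and IFITM1) and in 1 of the 2 that fell (SAMD9, not TASL). IRF7, IRF2 and TRIM22 had no window in the table.

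**Figure D1:**
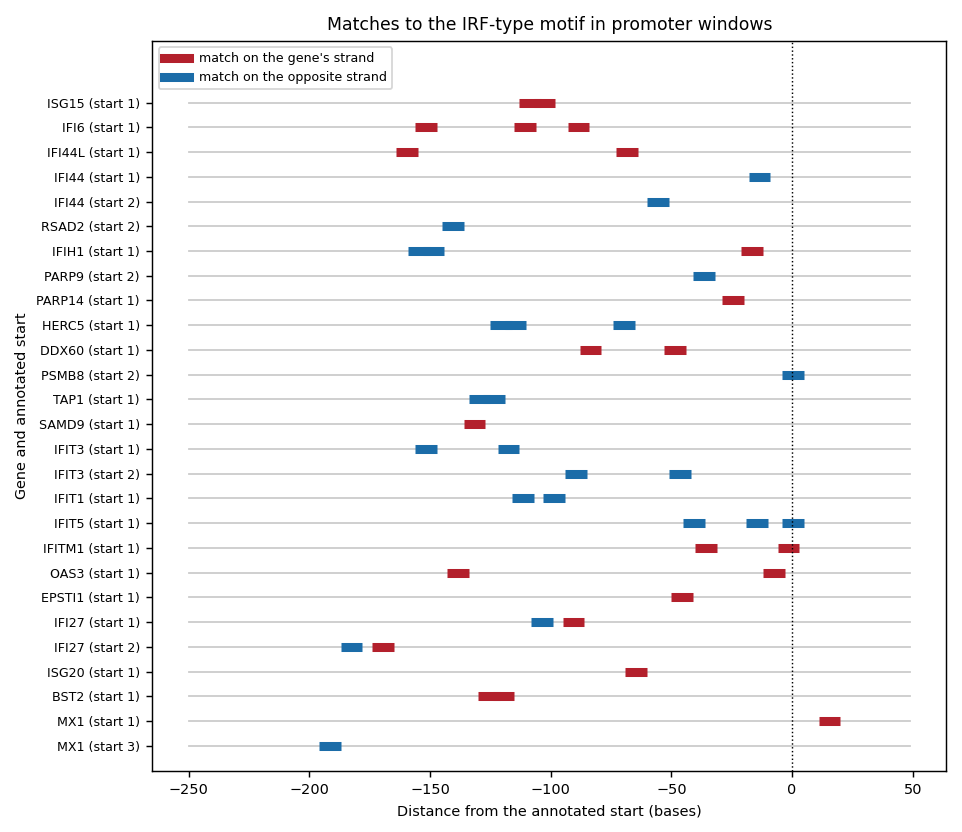
Positions of GAAANNGAAA in the promoter windows of the 23 measured members that held it. The horizontal axis is the distance from the annotated start in bases and each grey line is 1 window. Red blocks are matches on the gene's strand and blue blocks on the opposite strand, and the dotted line marks the start. Most matches lie before the start, but 1 match each in PSMB8, IFIT5 and IFITM1 runs across it and 1 in MX1 begins after it.

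The members differed in level between the lines. Of the 41 members, 14 never went below a log2 level of 6 and 5 never reached it. The mean reached 6 for 18 members in ARP1, for 26 in JJN3 and for 28 in RPMI-8226. RPMI-8226 had the highest mean for 26 members, JJN3 for 9 and ARP1 for 6. Probe sets of different genes differ in sensitivity, so no order between genes is drawn from these levels.

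TRIM22, an antiviral ubiquitin ligase, separated the lines furthest. Its mean was 5.28 ± 0.44 (SD, n = 4) for ARP1, 10.61 ± 0.57 for JJN3 and 10.81 ± 0.45 for RPMI-8226. IFIH1, the cytoplasmic sensor of double-stranded RNA also known as MDA5, was also lowest in ARP1, at 5.51 ± 0.24, 9.37 ± 0.34 and 9.11 ± 0.24 (SD, n = 4 each). ISG20, an RNA exonuclease, ran the opposite way, at 11.32 ± 0.70, 8.0 ± 0.60 and 8.39 ± 0.33. IFI27, a small mitochondrial protein, was on in JJN3 alone, at 9.6 ± 0.07 against 5.33 ± 0.27 in ARP1 and 5.24 ± 0.16 in RPMI-8226. In each of these genes the levels of the separated lines did not overlap on any array.

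Against the mean of the other lines, 22 of the 40 members were lower and 5 higher in ARP1, where 25.4% of all genes tested were lower and 24.1% higher. The member median was -0.46 and that of all genes -0.02. Members lower in ARP1 included TRIM22 (-5.42 ± 0.15, SE), IFIH1 (-3.73 ± 0.08), PARP14 (-3.02 ± 0.17), IFI44L (-2.44 ± 0.19), IFI44 (-2.40 ± 0.11), the dynamin-like GTPases MX2 (-2.25 ± 0.14) and MX1 (-2.11 ± 0.17), and the signalling factors IRF7 (-1.41 ± 0.31) and IRF9 (-1.08 ± 0.09), all with adjusted p of at most 0.0033. The 5 members higher in ARP1 were ISG20 (3.13 ± 0.15), OAS2 (1.72 ± 0.10), SAMD9 (1.5 ± 0.11), IRF2 (0.36 ± 0.12) and BST2 (0.33 ± 0.07). For 14 of the 40 members (35%) all 4 ARP1 arrays lay below the 8 others, against 15.2% of all genes. For 3 members (7.5%) they lay above, against 15.7%. The 4 arrays of a line are 1 line under 4 treatments, so these p-values measure the spread over treatments only. In such bulk RNA fewer cells with a transcript and less of it per cell cannot be told apart.

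JJN3 and RPMI-8226 were alike across genes but differed for several members. Compared with RPMI-8226, 14 of 40 members were lower in JJN3 and 5 higher, where 6.95% of all genes were lower and 8.52% higher, and the member median was -0.40 against 0.01 for all genes. The members lower in JJN3 included MX1 (-1.79 ± 0.19, adjusted p = 0.000316), IFIT2 (-1.52 ± 0.32, adjusted p = 0.0105), IFIT3 (-1.44 ± 0.21, adjusted p = 0.00171), IFI44 (-1.33 ± 0.13, adjusted p = 0.000128), OAS2 (-1.23 ± 0.12, adjusted p = 0.00015), MX2 (-1.07 ± 0.16, adjusted p = 0.00158) and ISG15 (-0.88 ± 0.11, adjusted p = 0.000637). MX1 ranged from 6.02 to 6.46 in JJN3 and from 7.44 to 8.83 in RPMI-8226. Higher in JJN3 were IFI27 (4.36 ± 0.12), OAS3 (1.67 ± 0.11), IFI6 (0.74 ± 0.22), CMPK2 (0.74 ± 0.17) and IFITM1 (0.32 ± 0.07). All 4 JJN3 arrays lay below all 4 RPMI-8226 arrays for 15 members (37.5%), against 6.81% of all genes, and above them for 3 members (7.5%), against 8.21%. The oligoadenylate synthetases, which activate RNase L, split between the lines. OAS2 was highest in ARP1 (7.41 to 7.92), OAS3 in JJN3 (6.35 to 6.75), and OAS1 lay between 5.89 and 7.25 in all 3 lines. The OAS3 difference rests on a single probe set of 3, and the others did not exceed 5.21 on any array.

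**Figure D2:**
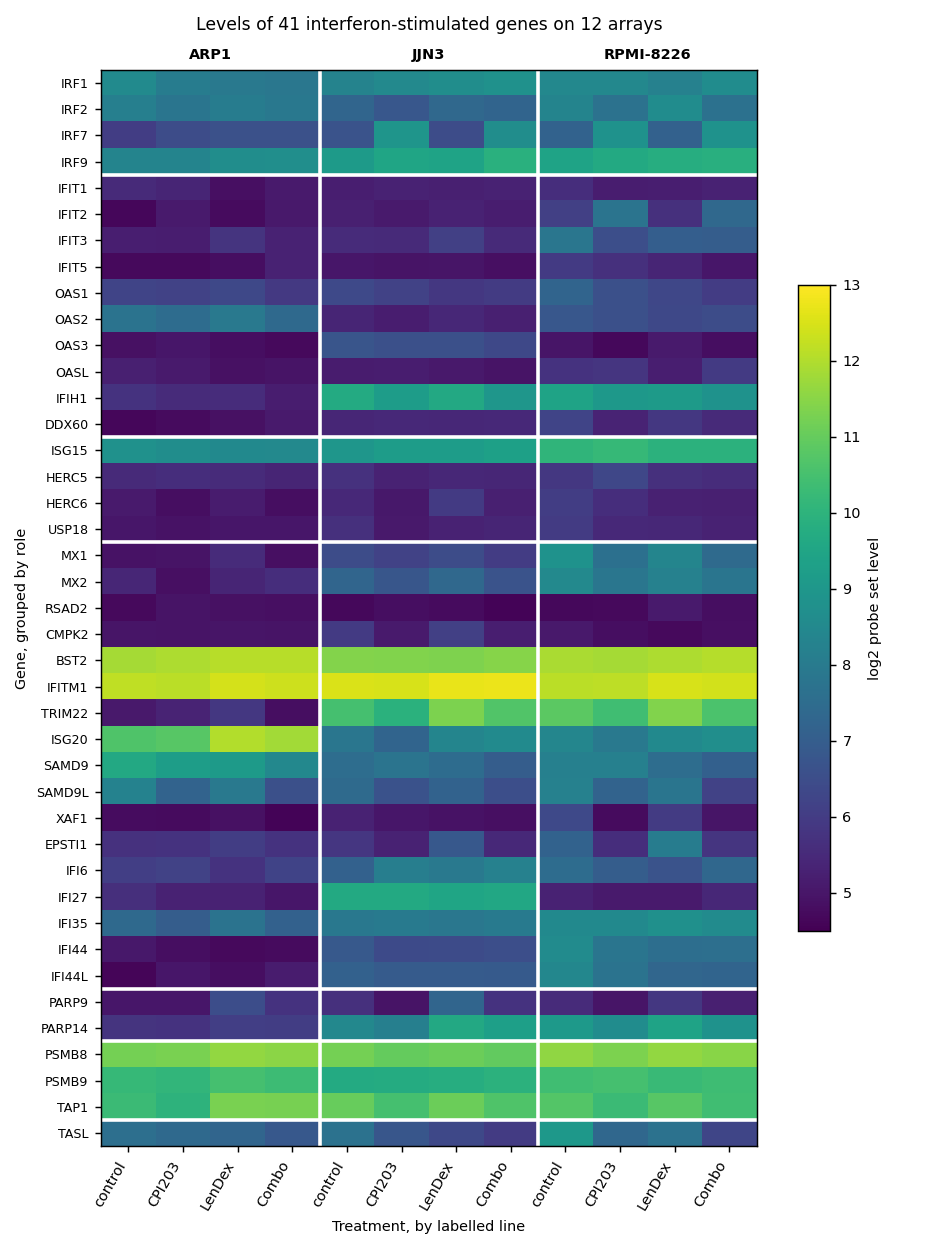
Log2 levels of the 41 measured members (rows, grouped by role) on the 12 arrays (columns, by labelled line and treatment), with 1 array per cell and colour from 4.5 or less (dark) to 13 (yellow). TRIM22, IFIH1 and PARP14 are dark or low in ARP1, IFI27 is high in JJN3 alone, and MX1, MX2, IFIT3 and IFI44 are highest in RPMI-8226.

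At the high end of the scale, IFITM1, a membrane protein that restricts viral entry, lay between 12.12 and 12.74, BST2, the tetherin that holds virions at the cell surface, between 11.35 and 12.10, and the immunoproteasome subunit PSMB8 between 10.95 and 11.63. Some antiviral members were near the level of transcripts that are not expressed. IFIT1, which binds viral RNA that lacks a fully methylated cap, lay between 4.84 and 5.60, IFIT5 between 4.72 and 5.94, OASL between 4.88 and 5.95, and USP18, the protease that removes ISG15, between 4.90 and 5.99. Those 4 and RSAD2 were the members below 6 on every array, and changes of such members are changes near background. XAF1 exceeded 6 on the RPMI-8226 control array alone, at 6.36, against 4.59 to 5.97 on the others.

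CPI203 lowered several members and raised IRF7. For the average effect of CPI203, 8 of 40 members were called (7.28% of all genes were), of which 1 rose and 7 fell, where 3.3% of all genes rose and 3.99% fell. The median over the 40 members was -0.18 and over all genes -0.003. Of the 40 members 31 had a negative change, as did 7696 of all 15173 genes. In all 3 lines 22 members were lower and 4 higher, but agreement in 3 lines was not counted over all genes. An unadjusted p under 0.05 was reached by 17 of the 40 and by 3662 of all 15173 genes.

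Among the signalling factors, IRF7, the factor that drives interferon gene transcription itself, was the only member called that rose. In the order control, CPI203, LenDex and Combo, which is kept for the values below, IRF7 stood at 6.03, 6.47, 6.62 and 6.6 in ARP1. It stood at 6.66, 8.93, 6.46 and 8.68 in JJN3 and at 7.16, 8.84, 7.13 and 8.82 in RPMI-8226. In JJN3 and RPMI-8226 both arrays with CPI203 lay far above both without it, and in ARP1 they overlapped. The average change was 1.38 ± 0.29 (SE, 2.6-fold, adjusted p = 0.0282, higher in 3 of 3 lines). IRF2, a repressor that competes with IRF1 for the same element, fell by 0.45 ± 0.11 (adjusted p = 0.04), from 8.18, 8.07, 7.28, 7.37, 8.33 and 8.62 on the arrays without CPI203 to 7.82, 7.89, 6.80, 7.25, 7.70 and 7.67 on their partners with it, lower in every pair. IRF1 (0.03 ± 0.14, adjusted p = 0.934) and IRF9 (0.19 ± 0.08, adjusted p = 0.186) were not called.

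SAMD9L, an antiproliferative and antiviral protein whose gene neighbours its paralog SAMD9 on chromosome 7, showed the largest fall of the members called. It stood at 8.26, 7.19, 7.94 and 6.56 in ARP1, at 7.45, 6.64, 7.16 and 6.53 in JJN3 and at 8.23, 7.22, 7.79 and 6.19 in RPMI-8226. Both arrays with CPI203 were lower than both without it in every line. The average change was -1.08 ± 0.13 (2.12-fold lower, adjusted p = 0.00873). All 4 of its probe sets reached a level of 6 and all fell, by -1.08 to -0.56. SAMD9 itself stood at -0.28 ± 0.11 (adjusted p = 0.138).

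EPSTI1, an interferon-induced gene named for epithelial and stromal interaction, stood at 7.16, 5.60, 8.08 and 5.80 in RPMI-8226. In JJN3 it was at 5.83, 5.3, 6.85 and 5.49, and in ARP1 at 5.71, 5.74, 6.05 and 5.73. With CPI203 it was at 5.80 or less on all 6 arrays, below 6 and thus near background, so the size of the fall is limited by the background. The average change was -1.0 ± 0.25 (2-fold lower, adjusted p = 0.0413), reached through RPMI-8226 (-1.92) and JJN3 (-0.94) more than ARP1 (-0.15).

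Of the other antiviral effectors, TRIM22 fell by 0.55 ± 0.14 (adjusted p = 0.044). It stood at 10.50, 9.93, 11.31 and 10.69 in JJN3 and at 10.87, 10.38, 11.40 and 10.58 in RPMI-8226. In ARP1, where it was at 5.09, 5.35, 5.87 and 4.83, it was near background. All 6 of its probe sets had a negative CPI203 change, from -0.67 to -0.24. IFIH1 fell by 0.41 ± 0.07 (adjusted p = 0.0194), from 9.69 and 9.63 to 9.19 and 8.98 in JJN3, from 9.42 and 9.13 to 9.03 and 8.84 in RPMI-8226 and from 5.73 and 5.59 to 5.54 and 5.17 in ARP1, lower with CPI203 in each pair. MX1 (-0.59 ± 0.16, adjusted p = 0.0523) and MX2 (-0.43 ± 0.13, adjusted p = 0.07) did not pass. MX1 stood at 8.83, 7.63, 8.37 and 7.44 in RPMI-8226, where both arrays with CPI203 were lower than both without.

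PARP9, an ADP-ribosyltransferase family member that works in complex with the ubiquitin ligase DTX3L, fell by 0.70 ± 0.18 (adjusted p = 0.0473). It stood at 5.01, 5.00, 6.52 and 5.76 in ARP1, at 5.67, 4.95, 7.27 and 5.76 in JJN3 and at 5.53, 4.99, 5.88 and 5.24 in RPMI-8226. The level exceeded 6 on the LenDex arrays of ARP1 and JJN3 alone, and the CPI203 change was -0.76, -1.51 and -0.64 in the presence of LenDex and -0.01, -0.73 and -0.54 without it. TASL, an adaptor that links endolysosomal Toll-like receptors to IRF5, fell by 0.84 ± 0.21 (1.79-fold, adjusted p = 0.0444), from 9.03 and 7.72 to 7.33 and 6.29 in RPMI-8226, from 7.70 and 6.34 to 6.77 and 5.97 in JJN3 and from 7.59 and 7.27 to 7.42 and 6.83 in ARP1.

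The remaining 32 members tested were not called, with average CPI203 changes between -0.59 and 0.64. In all 3 lines 15 of them were lower and 3 higher, which was likewise not counted over all genes. No member of the ISG15 system (ISG15, HERC5, HERC6, USP18) and none of the antigen-processing genes (PSMB8, PSMB9, TAP1) was called. ISG15 lay between 8.49 and 10.20 on all arrays and changed by 0.06 ± 0.09 (adjusted p = 0.768). IFI6, a mitochondrial protein, stood at 0.34 ± 0.18 (adjusted p = 0.295), with 7.15, 8.12, 7.95 and 8.22 in JJN3, 7.49, 7.0, 6.66 and 7.33 in RPMI-8226 and 6.07, 6.19, 5.73 and 6.21 in ARP1. On the calls, 11 members passed without the ARP1 arrays, the 8 above with MX1, MX2 and TAP1, all 3 lower. The share of all genes called in that setting is not given here, so the count does not show a gain particular to the members. None passed without JJN3, without RPMI-8226 or with the arrays of both averaged, settings in which no gene at all was called, and 1 (SAMD9L) passed without the JJN3 control array.

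**Figure D3:**
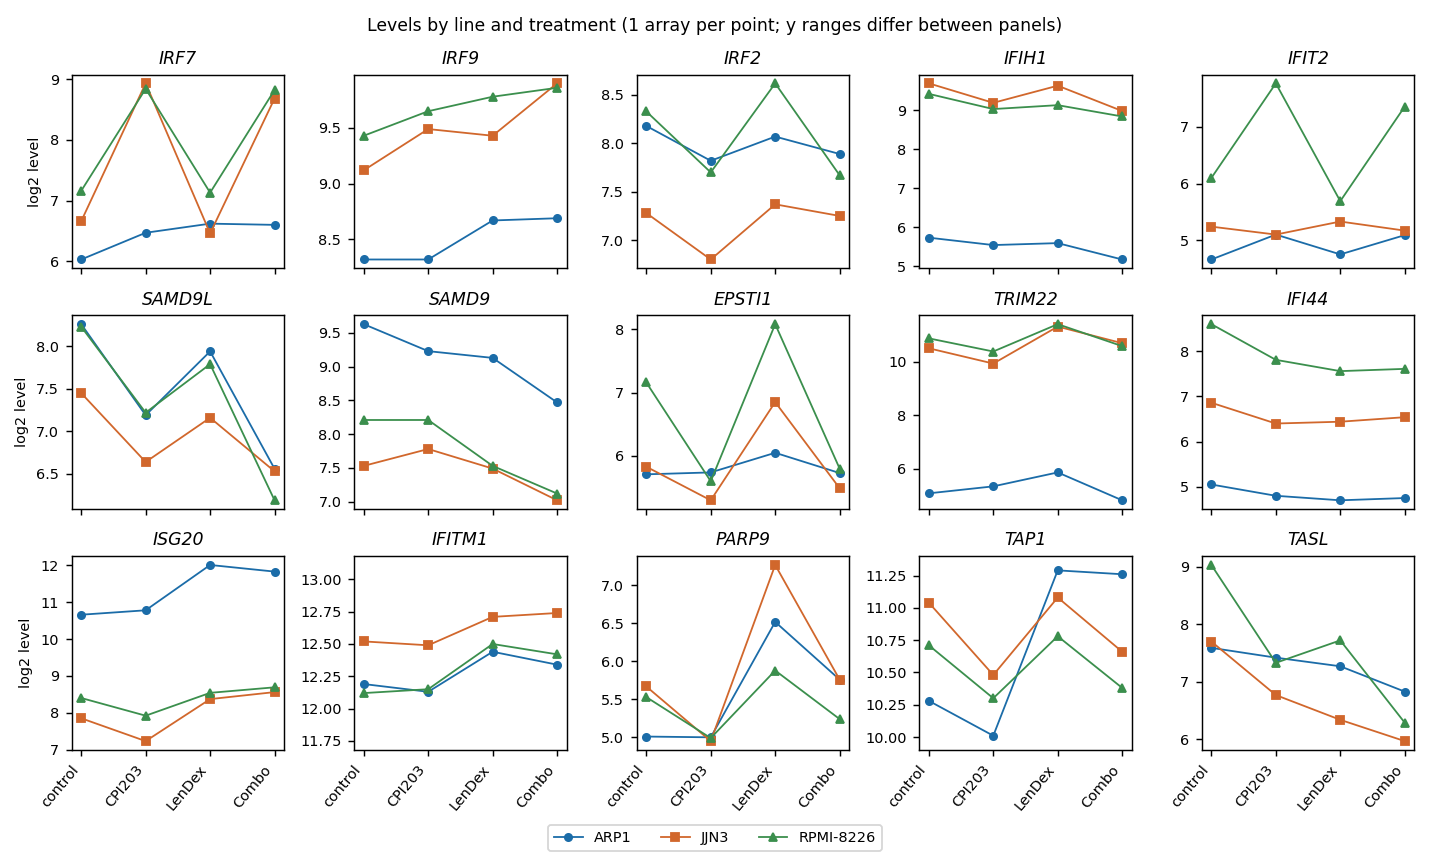
Log2 levels of 15 members by treatment, with 1 array per point and colour and symbol for the labelled line; vertical ranges differ between panels. IRF7 rises with CPI203 in JJN3 and RPMI-8226, SAMD9L falls with CPI203 in all 3 lines, and ISG20 rises with LenDex in all 3.

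LenDex moved members in both directions. For its average effect 5 of 40 members were called (4.25% of all genes), with 3 higher (1.73% of all genes) and 2 lower (2.52%). The member median was -0.04 and that of all genes 0.01. Of the 40 members 10 were higher and 9 lower in all 3 lines, again without a count over all genes. An unadjusted p under 0.05 was reached by 13 members and by 2863 of all 15173 genes.

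ISG20 rose by 0.86 ± 0.14 (1.82-fold, adjusted p = 0.0135). It stood at 10.66, 10.78, 12.01 and 11.83 in ARP1, at 7.85, 7.23, 8.37 and 8.56 in JJN3 and at 8.40, 7.92, 8.54 and 8.69 in RPMI-8226. In every line both arrays with LenDex were above both without it. PARP9 rose by 0.88 ± 0.18 (1.84-fold, adjusted p = 0.0293), by 1.51 and 1.60 for LenDex alone in ARP1 and JJN3 and by 0.36 in RPMI-8226, from the levels given above. IFITM1 rose by 0.26 ± 0.06 (adjusted p = 0.0423), from 12.19, 12.13, 12.52, 12.49, 12.12 and 12.15 to 12.44, 12.34, 12.71, 12.74, 12.50 and 12.42, higher in each of the 6 pairs.

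SAMD9 fell by 0.64 ± 0.11 (1.55-fold, adjusted p = 0.0146). It stood at 9.63, 9.23, 9.13 and 8.47 in ARP1, at 7.53, 7.78, 7.49 and 7.02 in JJN3 and at 8.21, 8.21, 7.53 and 7.12 in RPMI-8226. Both LenDex arrays were below both others in each line, by 0.04 in JJN3 when LenDex was given alone. TASL fell by 0.90 ± 0.21 (1.87-fold, adjusted p = 0.0467). It was also lower with CPI203, as given above, and on the Combo array it was the lowest in every line, at 6.83, 5.97 and 6.29.

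Of the members with positive LenDex changes in all 3 lines, 7 missed the threshold. Among them were IRF9 (0.33 ± 0.08, adjusted p = 0.0502), PARP14 (0.58 ± 0.16, adjusted p = 0.0721), TRIM22 (0.43 ± 0.14, adjusted p = 0.12), EPSTI1 (0.44 ± 0.25, adjusted p = 0.379) and TAP1 (0.44 ± 0.17, adjusted p = 0.203). PARP14, a mono-ADP-ribosyltransferase whose gene lies near PARP9 on chromosome 3, stood at 8.46, 8.16, 9.64 and 9.29 in JJN3, at 9.06, 8.65, 9.43 and 8.83 in RPMI-8226 and at 5.77, 5.76, 6.08 and 6.06 in ARP1. All 3 of its probe sets that reached 6 had positive changes (0.37 to 0.58). On the negative side SAMD9L stood at -0.47 ± 0.13 (adjusted p = 0.0792), OAS1 at -0.39 ± 0.13 (adjusted p = 0.141) and IFI44 at -0.32 ± 0.10 (adjusted p = 0.114). The RPMI-8226 arrays with LenDex also differed in the 3′ to 5′ difference of the control probe sets, from -0.10 to -0.09 for GAPDH against -0.22 to -0.15 without LenDex, and from 0.39 to 0.45 against 0.23 to 0.27 for actin; its part in these changes was not tested. Without ARP1 4 members passed, among them TRIM22, which was not called in the main fit. The share of all genes called without ARP1 is again not given. PARP9 (0.75, adjusted p = 0.103) and IFITM1 were not called there. None passed without JJN3, without RPMI-8226 or with both averaged, and 2 (ISG20 and SAMD9) passed without the JJN3 control array.

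**Figure D4:**
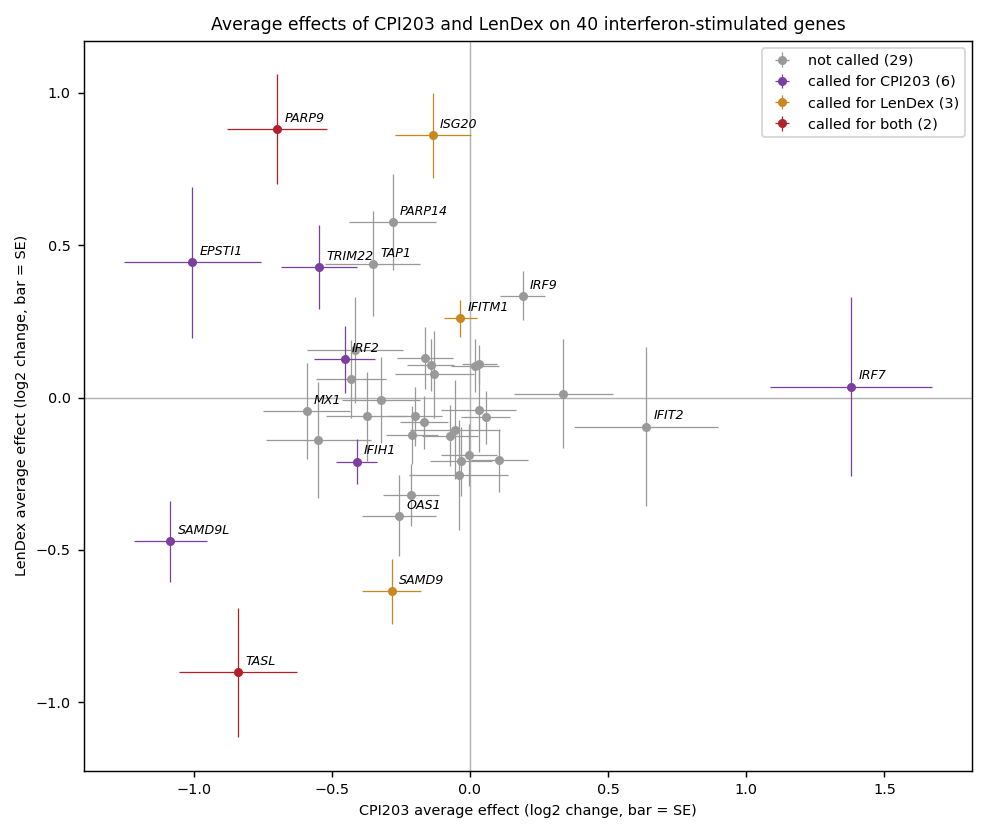
Average CPI203 effect (horizontal) against average LenDex effect (vertical), both in log2 units with SE bars, for the 40 members tested; both axes use the same 12 arrays. PARP9 is lower with CPI203 and higher with LenDex, TASL is lower with both, and IRF7 stands alone to the right.

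PARP9 and TASL were called for both average effects, in opposite and in the same direction. Combo against control joined the drugs, and 7 of 40 members were called (9.15% of all genes), of which 2 rose (3.55% of all genes) and 5 fell (5.6%), with a member median of -0.19 against 0.01 for all genes. TASL fell by 1.74 ± 0.30 (3.35-fold, adjusted p = 0.0112), with changes of -0.77, -1.72 and -2.74 for ARP1, JJN3 and RPMI-8226. SAMD9L fell by 1.56 ± 0.19 (2.94-fold, adjusted p = 0.00351) and SAMD9 by 0.92 ± 0.15 (1.89-fold, adjusted p = 0.00985). IFIH1 fell by 0.62 ± 0.10 (adjusted p = 0.0107), and IFI44, an interferon-induced antiviral protein, by 0.53 ± 0.14 (adjusted p = 0.0476). IFI44 was highest on the control array in each line, at 5.05, 4.80, 4.70 and 4.75 in ARP1, 6.86, 6.4, 6.44 and 6.54 in JJN3, and 8.6, 7.81, 7.56 and 7.61 in RPMI-8226.

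The risers under Combo were IRF9 and ISG20. IRF9, the DNA-binding subunit of ISGF3, stood at 8.32, 8.32, 8.67 and 8.69 in ARP1, at 9.12, 9.49, 9.43 and 9.90 in JJN3 and at 9.43, 9.65, 9.78 and 9.86 in RPMI-8226. It rose by 0.53 ± 0.12 (1.44-fold, adjusted p = 0.0231), and all 4 of its probe sets had positive changes for both drugs. ISG20 rose by 0.73 ± 0.20 (adjusted p = 0.0482). IRF7 stood at 1.42 ± 0.41 (adjusted p = 0.0635). Opposed changes left PARP9 at 0.18 ± 0.26 (adjusted p = 0.731) and TRIM22 at -0.12 ± 0.20 (adjusted p = 0.775). Without the ARP1 arrays 9 members were called, among them IRF7, MX1, MX2 and OAS1 but not ISG20 or IFI44. This count too stands without the share of all genes called in that setting. With JJN3 and RPMI-8226 averaged only SAMD9L was called, without the JJN3 control array SAMD9 and SAMD9L were, and without JJN3 or without RPMI-8226 none was.

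Each single treatment against control, on 3 arrays each, called no member. For CPI203 1 gene in all passed (0.00659%), and 9 members had an unadjusted p under 0.05 beside 2456 of all 15173 genes; with a variance trend and robust fit 1 member, SAMD9L, was called. For LenDex 0.461% of genes passed, and 13 members had an unadjusted p under 0.05 beside 2079 of all genes; the same alternative fit called PARP9 and IFITM1. Values for members with large average effects were those of IRF7 (1.47 ± 0.41 for CPI203, adjusted p = 0.145), SAMD9L (-0.96 ± 0.19, adjusted p = 0.0895) and PARP9 (1.16 ± 0.26 for LenDex, adjusted p = 0.0923). These comparisons share the control arrays. No member and no gene (0%) passed limma's test of the interaction, in which 1 member, IFI44, had an unadjusted p under 0.05 (0.56 ± 0.20, adjusted p = 1), beside 472 of all genes.

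The response to CPI203 differed between lines for 2 members, by the moderated F test of line by drug terms (0.323% of all genes). The residual of this test is the departure from additive drug effects within lines. Its p-values thus do not measure whether a line's response would recur in a separate experiment. IRF7 changed by 2.25 in JJN3, by 1.68 in RPMI-8226 and by 0.21 in ARP1 (adjusted p = 0.0262). The BET inhibitor response gene HEXIM1 also rose least in ARP1, so a smaller change there was not particular to IRF7. IFIT2, an RNA-binding protein of the IFIT family, changed by 1.67 in RPMI-8226, by -0.15 in JJN3 and by 0.39 in ARP1 (adjusted p = 0.0262). IFIT2 stood at 6.10, 7.77, 5.69 and 7.36 in RPMI-8226, at 5.24, 5.10, 5.33 and 5.17 in JJN3 and at 4.66, 5.10, 4.75 and 5.09 in ARP1, so it left background in RPMI-8226 alone. Its neighbour IFIT3 did not follow, at 7.85, 6.55, 7.05 and 7.02 in RPMI-8226, 5.56, 5.52, 6.12 and 5.50 in JJN3 and 5.20, 5.18, 5.79 and 5.31 in ARP1. A single IFIT2 probe set carried the rise; the other probe set did not exceed 5.38 on any array and changed by 0.06. Neither call held without the JJN3 control array, a setting in which no gene was called.

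**Figure D5:**
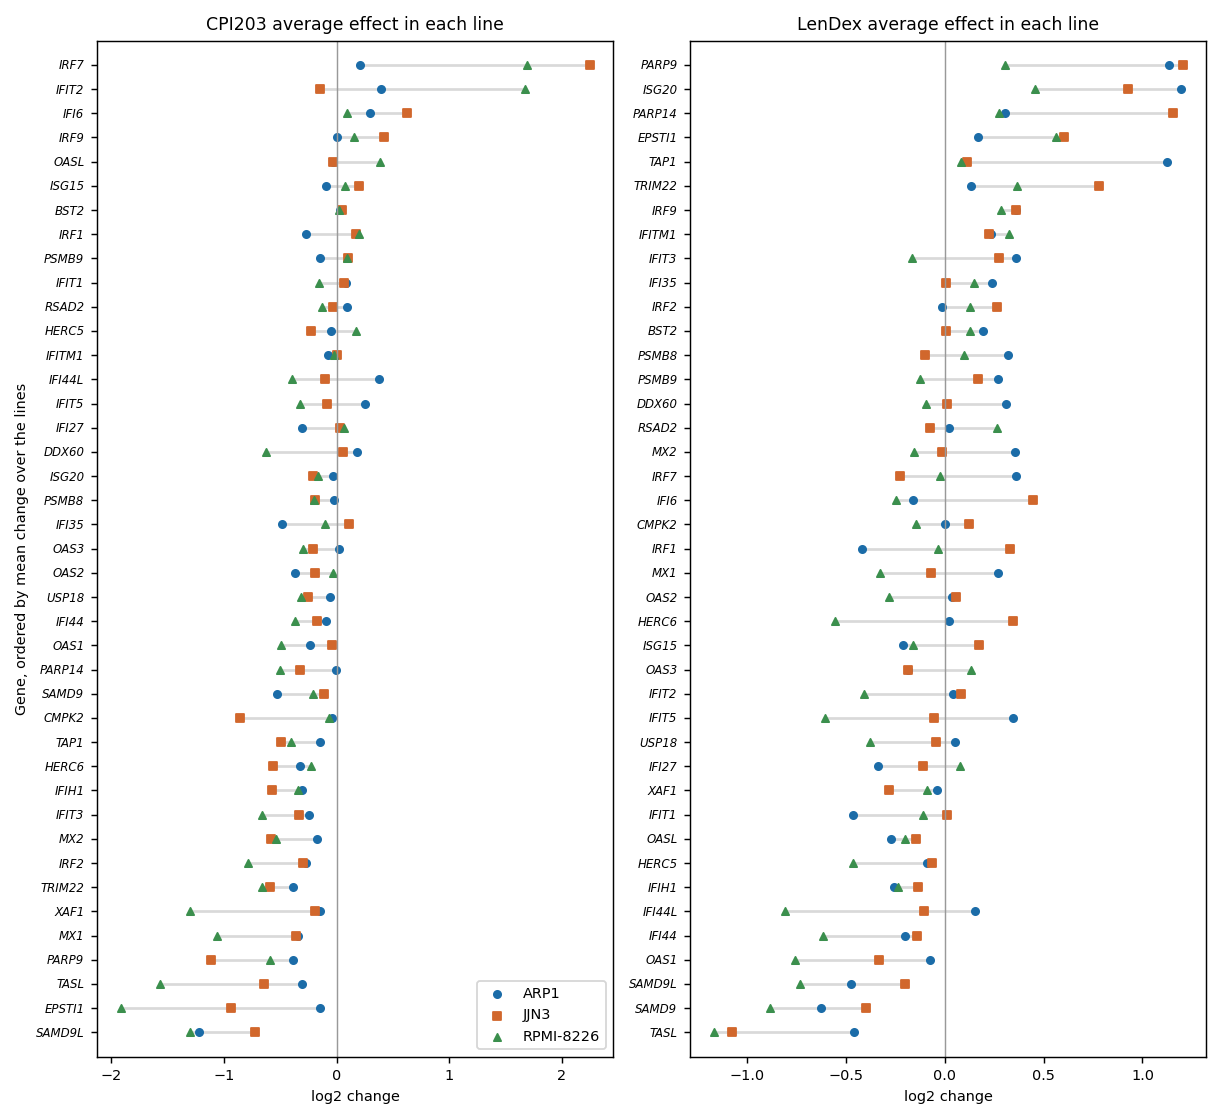
Average CPI203 (left) and LenDex (right) change in each line, in log2 units, for the 41 measured members, ordered by the mean over lines; each symbol is the change over 4 arrays of 1 line and grey bars join the lines. IRF7 and IFIT2 spread widest to the right under CPI203, and TAP1 stands apart in ARP1 under LenDex.

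For LenDex no member was called in the same test (0.369% of all genes were), and 10 members had an unadjusted p under 0.05, beside 2071 of all genes. The smallest was that of TAP1, a subunit of the transporter that loads peptides for class I presentation (adjusted p = 0.0709). TAP1 stood at 10.28, 10.01, 11.29 and 11.26 in ARP1, at 11.04, 10.48, 11.08 and 10.66 in JJN3 and at 10.71, 10.30, 10.78 and 10.38 in RPMI-8226. Its LenDex change was 1.13 in ARP1 but 0.11 and 0.08 in JJN3 and RPMI-8226, and it was called with a filter at a mean of 6 and with the mean of its 2 probe sets, both of which had positive changes. PARP14 followed (adjusted p = 0.0952), with changes of 1.15 in JJN3, 0.30 in ARP1 and 0.27 in RPMI-8226.

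The rest of the pathway was read from a list of 73 genes, of which 68 had a probe set and 58 were tested. Of the interferon genes, those measured here stayed near background. IFNB1 lay between 4.54 and 5.14, IFNE between 4.67 and 5.10, IFNG between 4.76 and 5.25 and IFNL1 between 4.66 and 5.16 over the 12 arrays. With CPI203, 2 of the 58 genes rose and 6 fell, where 3.3% of all genes rose and 3.99% fell. The risers were JAK1 (0.49 ± 0.12, adjusted p = 0.0391), the kinase of the receptor, and HLA-E (0.33 ± 0.07, adjusted p = 0.0294). The fallers were IRF5 (-0.64 ± 0.13, adjusted p = 0.0247), the Toll-like receptor adaptor MYD88 (-0.63 ± 0.11, adjusted p = 0.0183), the DNA sensor IFI16 (-0.45 ± 0.06, adjusted p = 0.0118), SP110 (-0.51 ± 0.12, adjusted p = 0.0404), PARP12 (-0.48 ± 0.12, adjusted p = 0.0448) and DTX3L (-0.76 ± 0.17, adjusted p = 0.0293). The list median was -0.06.

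IRF5 and MYD88 act with TASL in Toll-like receptor signalling, and IRF5 changed by -1.02 in RPMI-8226, -0.64 in JJN3 and -0.26 in ARP1. The receptors TLR7 and TLR9 themselves stayed between 4.58 and 5.56. With LenDex 3 of the 58 genes rose and 1 fell, where 1.73% of all genes rose and 2.52% fell. STING1, the adaptor of cytosolic DNA sensing, rose by 0.77 ± 0.09 (1.7-fold, adjusted p = 0.00394), from 8.59 and 8.37 to 9.27 and 9.16 in ARP1, from 5.85 and 5.46 to 6.45 and 6.39 in JJN3 and from 6.31 and 5.82 to 7.17 and 6.56 in RPMI-8226. It was called for LenDex alone as well (0.72 ± 0.12, adjusted p = 0.0485). MAVS, the adaptor downstream of IFIH1, rose by 0.37 ± 0.08 (adjusted p = 0.0318), and TBK1, the kinase downstream of both adaptors, fell by 0.27 ± 0.06 (adjusted p = 0.0492).

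DTX3L rose by 0.71 ± 0.17 with LenDex (adjusted p = 0.0445) and so moved as PARP9 did under both drugs. It stood at 6.75, 6.17, 7.24 and 6.75 in ARP1, at 6.4, 5.77, 7.99 and 6.64 in JJN3 and at 7.18, 6.20, 7.32 and 6.77 in RPMI-8226. Both genes were highest on the LenDex array in each line and lowest on the CPI203 array. PARP9 was below 6, near background, on every control and CPI203 array, at 5.01 and 5.00 in ARP1. SOCS1, a feedback inhibitor of JAK kinases, was the 1 gene of the list with a line difference in the LenDex effect (adjusted p = 0.0309). It went from 5.43 and 5.44 to 8.15 and 7.98 in ARP1, from 10.28 and 10.24 to 10.63 and 10.95 in JJN3 and from 10.03 and 10.01 to 10.44 and 10.94 in RPMI-8226. IFNLR1, a subunit of the type III interferon receptor, went from 7.04 and 6.81 to 8.62 and 8.68 in ARP1 and stayed between 4.59 and 5.08 elsewhere (adjusted p = 0.0678). Under Combo JAK1 (0.77 ± 0.17) and STING1 (0.45 ± 0.12) rose, and MYD88 (-0.82 ± 0.15), IFI16 (-0.50 ± 0.09) and SP110 (-0.73 ± 0.18) fell, where 3.55% of all genes rose and 5.6% fell.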

How the data were processed

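The authors deposited log2 probe set levels; per the submitters' processing notes, these came from RMA and version 1.1 of Affymetrix Expression Console. The log2 unit follows from their range, and whether the 12 arrays were normalised together is not given in the sources used here. RMA sets arrays to a common distribution, so a change is measured against most other transcripts, and the number of arrays limits the precision. Array medians lay between 5.304 and 5.375.

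Of 49386 probe sets, 93 were controls, 45253 carried a single symbol in the annotation of the platform, brought up to date through RefSeq for 45172, and 1327 had several and were not used. Each gene took the probe set with the highest mean, and tests covered genes that reached 5 on 3 or more arrays. Groups came from the treatment labels. limma 3.58.1 (R 4.3.3) was fitted to all 12 arrays with line and treatment as terms (6 residual degrees of freedom), with two-sided p-values adjusted by Benjamini-Hochberg across the genes tested. The test of line differences took the drug effects as additive in log2 units, with 3 residual degrees of freedom. Line served as a block because same-numbered samples are the same cell line; deviations from group means correlated within a line at 0.905 to 0.938 (ARP1), 0.82 to 0.884 (JJN3) or 0.831 to 0.888 (RPMI-8226). The fit was tested on simulated data.

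Members and lists were chosen with earlier results of these data known. Values on every array are given for members called in any drug comparison or line-difference test, the 3 largest average changes in each direction, the 3 highest and lowest members, for which ranges are given, and the 4 with the largest line differences, for which line means are given; the values of MX1, IFIT3, TAP1 and DTX3L were added after they were seen. Alternatives were no level filter, a mean of 6 or more, the mean of all probe sets, cyclic loess, a variance trend with a robust fit, no line block, leaving out each line, averaging JJN3 and RPMI-8226, leaving out the JJN3 control array, and fits of 2 groups alone.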

Additional observations from a re-analysis of the deposited data

Results flagged for a closer look

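The CPI203 change of IRF7 differed between lines (moderated F test, adjusted p = 0.0262), at 2.25 in JJN3, 1.68 in RPMI-8226 and 0.21 in ARP1. The CPI203 change of IFIT2 differed likewise (adjusted p = 0.0262), at 1.67 in RPMI-8226, -0.15 in JJN3 and 0.39 in ARP1. The LenDex change of SOCS1 differed between lines (adjusted p = 0.0309), at 2.63 for ARP1, 0.53 for JJN3 and 0.67 for RPMI-8226. These p-values rest on the departure from additive drug effects within lines, not on repeats of a line. With 3 arrays per treatment, no group was large enough for a test of single outlying arrays.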

How the results depend on the processing

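Of 225 alternative values for 20 gene results, 111 kept their direction and side of the threshold, 114 kept their direction and lost the call, and 0 reversed. Of 101 alternative counts of called members, 74 stayed within 1.5 times the main count, 19 were lower and 8 higher. With no line block, that is without the replicate block, the counts fell from 8 to 0 for the CPI203 average, from 5 to 0 for the LenDex average and from 7 to 0 for Combo. Leaving out a line gave 0 to 11, 0 to 4 and 0 to 9 for these comparisons, and 0 to 4 for CPI203 against control. The share of all genes called when ARP1 was left out is not given beside these counts. With JJN3 and RPMI-8226 averaged the counts for the CPI203 average, the LenDex average and Combo were 0, 0 and 1. Without the JJN3 control array they were 1, 2 and 2. A fit of the 6 Combo and control arrays alone called 0. Line differences in the CPI203 effect numbered 1 with a mean of 6 or more, 1 with the mean of probe sets, 5 with a variance trend and robust fit, and 0 without the JJN3 control array. Those in the LenDex effect numbered 1, 1 and 3 under the same first 3 settings. CPI203 against control called 1 member with a variance trend and robust fit. LenDex against control called 1 with the mean of probe sets and 2 with the trend and robust fit. The cause of these shifts was not tested. Counts of members that differed between lines lay between 23 and 25 for ARP1 and 13 and 16 for JJN3 against RPMI-8226 when 1 treatment was left out. Levels below 6 lie near background, which limits the size of any fall there.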

Other observations

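Other genes of the interferon pathway list also differed between lines. Of the 58 tested, 32 were lower and 11 higher in ARP1 than in the mean of the other lines, where 25.4% of all genes were lower and 24.1% higher, with a list median of -0.33, beside -0.02 for all genes. IFNGR2, a subunit of the interferon gamma receptor, stood at 6.38 ± 0.08 (SD, n = 4) for ARP1, 10.79 ± 0.17 for JJN3 and 10.42 ± 0.22 for RPMI-8226. The class I heavy chains HLA-C (8.16 ± 0.50, 13.10 ± 0.02 and 13.41 ± 0.05) and HLA-F (8.05 ± 0.34, 11.51 ± 0.12 and 11.65 ± 0.24) ran the same way, while B2M, their light chain, lay between 13.54 and 13.71 on all arrays. HLA-B differed less (12.44 ± 0.05, 13.21 ± 0.04 and 13.32 ± 0.03). HLA-E had its highest mean in ARP1 (11.75 ± 0.13, 11.46 ± 0.24 and 11.45 ± 0.24). HLA probe sets can pick up near-identical family members and allelic differences. STING1 (8.85 ± 0.44, 6.04 ± 0.47 and 6.47 ± 0.56), TAP2 (9.54 ± 0.16, 6.82 ± 0.09 and 7.59 ± 0.10) and JAK1 (9.68 ± 0.25, 7.29 ± 0.33 and 6.52 ± 0.50) were higher on every ARP1 array than on any other. The 4 arrays of a line are 1 line under 4 treatments.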
